A study of Mus musculus with 51 samples.

Results

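The duodenum and the jejunum of sham-operated mice were compared within the same animals. The 10 libraries are those of the sham group that carry either segment, out of 51 libraries in the series, and each animal gave both segments, which the submitters' animal codes show. Genes were joined by Ensembl identifier, and 10663 genes listed in both segments' tables were tested. Pancreatic acinar transcripts were set aside among the named genes, because the duodenum libraries of animals 1, 2 and 3 carry them.

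The mice were male C57Bl6 animals made obese by diet. They were the controls of a study of Roux-en-Y gastric bypass (RYGB), in which stomach contents are led past the duodenum. The sham animals had an operation without the bypass, took an elemental liquid diet and then high-fat food again, and were held by rationing to the weight of the bypassed mice. Tissue was taken at 9 weeks, in the morning after an overnight fast, and villi were scraped from the gut after cold EDTA. Both segments share all of this, so the obesity, the sham operation, the rationing and the fast are constant between them. The spread behind each p-value is that of the difference between segments over 5 animals, each sampled once per segment. It was moderated with the spread of the other genes.

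The duodenum receives gastric acid, bile and pancreatic juice, and its epithelium is known for the uptake of iron, calcium and folate and for the secretion of bicarbonate. The jejunum is the main site at which brush-border enzymes split peptides and sugars and at which the products are absorbed. The identity of each region is held in part by transcription factors such as Pdx1, Gata4 and the Cdx proteins. In tissue of this kind, fewer cells of a type and less RNA per cell cannot be told apart.

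The deposited values are counts per gene divided by the library's reads and multiplied by 1000000 (CPM), and read totals are not part of them, so depth is unknown. On the log2 scale, libraries correlated across genes at 0.912 to 0.984 within the duodenum, at 0.961 to 0.99 within the jejunum and at 0.92 to 0.978 between them. Each segment's table was deposited separately, so the segment and its table cannot be told apart. Each lists only genes that reached 1 CPM in at least 4 of its libraries, sham and bypassed counted together. Enterocyte genes were high in both segments, with Sis at 7321 ± 4723 CPM in the duodenum and 10188 ± 1632 in the jejunum (mean ± SD, n = 5) and Vil1 at 1876 ± 498 and 1697 ± 347. Of 22 measured T cell and intraepithelial lymphocyte genes 0 passed the test between the segments, which 5.79% of all genes passed, and their summed level was 272 to 423 CPM in the duodenum and 179 to 600.1 in the jejunum. The smooth muscle genes Myh11 and Actg2 were listed in neither table. Acta2 was listed for the jejunum only, at 0.3 to 3.5 CPM, and Tpm2 for the duodenum only, at 0.8 to 3.8 CPM. Fibroblast genes summed to at most 89.6 CPM in the duodenum and 109 in the jejunum.

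The pancreatic acinar list held 6.96%, 10.4% and 7.04% of CPM in the duodenum of animals 1, 2 and 3, and 0.163% and 0.161% in that of animals 4 and 5. In the jejunum its share was 0.119% to 0.367%. Of its 44 members 35 were listed in the duodenum's table and 17 in both. Among those 17, Dnase1, which encodes a nuclease made in several glands, was called higher in the jejunum (log2 difference 3.18 ± 0.24). The other 16 did not pass the test. For 12 of the 17 all jejunum values nonetheless lay below all duodenum values, against 3.09% of all genes. The median difference of the 17 was −7.06. The lipase gene Pnlip stood at 17083, 22022, 9374, 215 and 10.0 CPM in the duodenum of animals 1 to 5 and at no more than 4.9 CPM in the jejunum (log2 difference −8.58 ± 2.15, adjusted p = 0.117). Other genes also differed in mean between the duodenum of animals 4 and 5 and that of animals 1, 2 and 3. Of the 377 genes called higher in the jejunum, 338 (89.7%) had a higher mean in the duodenum of animals 4 and 5 than in that of animals 1, 2 and 3, against 62.4% of all genes. Of the 240 genes called lower, 172 (71.7%) had a lower mean there, against 37.4% of all genes. A full split was less common. Both animals 4 and 5 lay above all of animals 1, 2 and 3 for 116 of the 377 (30.8%, all genes 11.1%). They lay below all of them for 47 of the 240 (19.6%, all genes 6.1%). The part of the pancreatic transcripts in these differences was not tested. With the duodenum of animals 4 and 5 alone against all jejunum libraries 43 genes were called, 30 higher and 13 lower in the jejunum. Unlike the fit to all sham libraries, that fit did not pair the segments by animal.

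**Figure D1:**
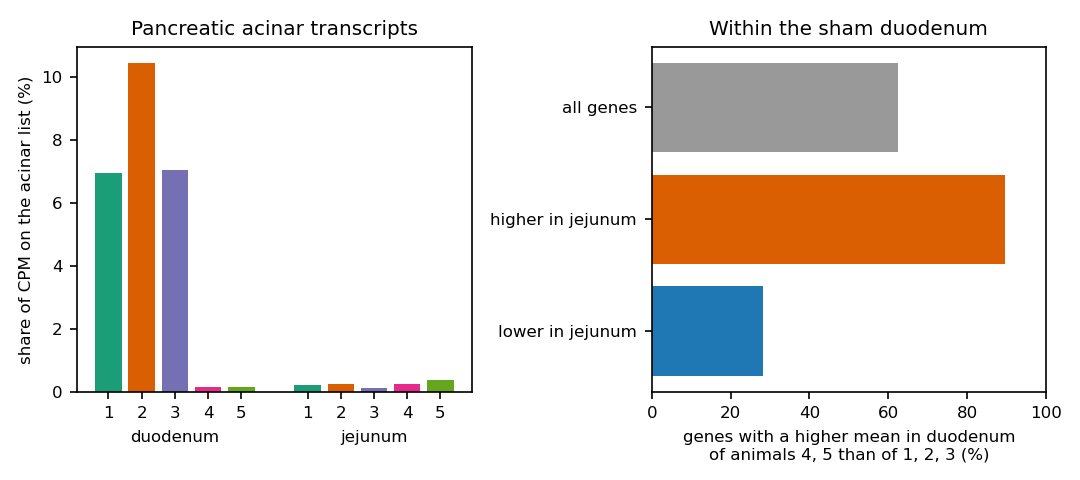
Share of CPM on the pancreatic acinar list in each of the 10 sham libraries (left, bars from 0, animals 1 to 5 per segment) and the percentage of genes with a higher mean CPM in the duodenum of animals 4 and 5 than of animals 1, 2 and 3 (right). The first 3 duodenum libraries reach 6.96% to 10.4%, all other libraries stay below 1%, and the bar of the genes higher in the jejunum stands at 89.7%.

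Between the segments, 617 of 10663 genes passed the test, which is 5.79% of them (limma with the animal as a block, Benjamini-Hochberg adjusted p below 0.05). Of these, 377 genes (3.54% of all) were higher in the jejunum and 240 (2.25%) were lower, and 2279 genes had an unadjusted p under 0.05. The differences are jejunum minus duodenum on the log2(CPM + 1) scale, given with their standard error (SE), and the median over all genes was 0.00. More than 2-fold differences were found for 194 of the higher and 132 of the lower genes, and more than 8-fold ones for 12 and 9. The 5 jejunum values lay all above the 5 duodenum values for 260 of the 377 genes and all below them for 161 of the 240; over all genes this held for 3.92% and 3.09%. Rescaling each library to its total without the pancreatic list moved the median of all genes to −0.06 and the split of the calls from 377 higher and 240 lower to 317 and 335. All 240 lower genes and 317 of the 377 higher ones were also called on that scale. The number of calls fell to 224 without animal 2, 342 without animal 3 and 400 without animal 4.

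**Figure D2:**
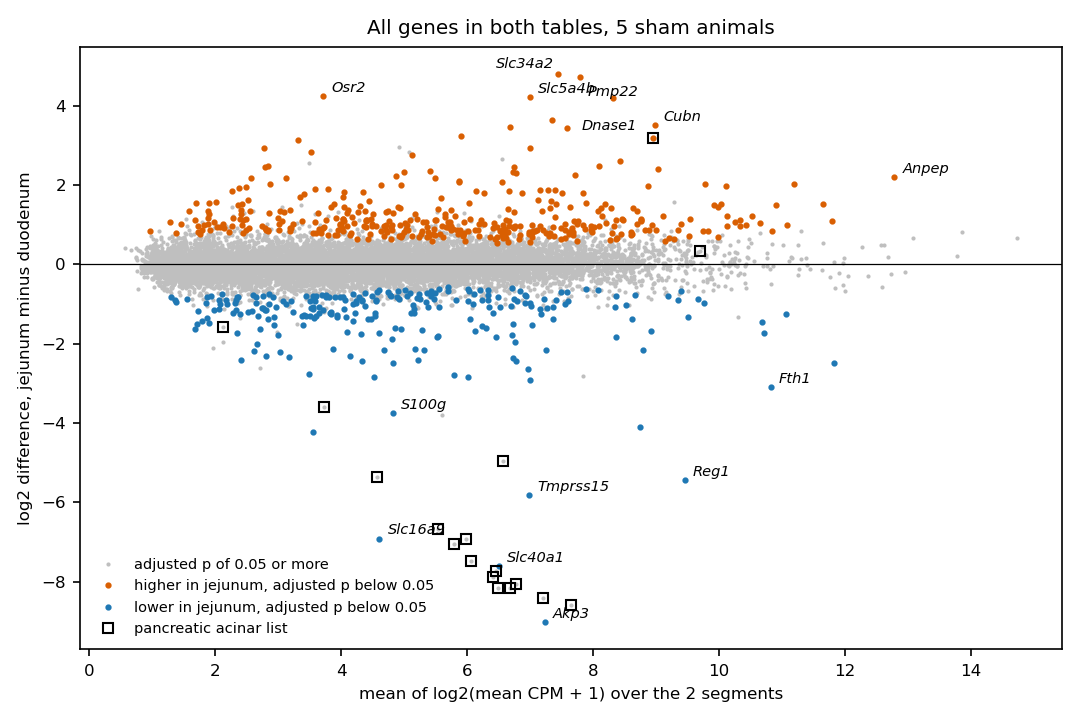
Log2 difference between jejunum and duodenum (y axis) against the mean of the segments' log2 mean CPM (x axis) for all 10663 genes in 5 sham animals. Orange and blue points are the 377 and 240 genes called higher and lower in the jejunum, and open squares mark the pancreatic acinar list, 1 of whose 17 members, Dnase1, was called.

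Akp3, an alkaline phosphatase of the duodenal brush border, had the largest difference of all called genes. It stood at 4375, 2389, 6107, 1856 and 1303 CPM in the duodenum of animals 1 to 5 and at 16.2, 7.5, 1.9, 1.2 and 3.5 CPM in the jejunum, a log2 difference of −9.01 ± 0.44 (adjusted p = 0.000129). The groups lay more than an order of magnitude apart in every animal. Alpi, the second measured alkaline phosphatase, averaged 3307 ± 792 CPM in the duodenum and 1385 ± 325 in the jejunum (−1.26 ± 0.25, adjusted p = 0.0174), and its call was lost without animal 2 or 4 (adjusted p from 0.063 to 0.0638). Tmprss15 encodes enteropeptidase, the protease that activates pancreatic trypsinogen at the mucosal surface. Its level was 1219.7, 619, 997, 876 and 248 CPM in the duodenum and 55.2, 24.5, 8.5, 2.2 and 5.8 CPM in the jejunum (−5.81 ± 0.55, adjusted p = 0.00239). Reg1, a secreted lectin made by enterocytes and by acinar cells, averaged 2996 ± 431 CPM in the duodenum and 163 ± 201 in the jejunum (−5.44 ± 0.89, adjusted p = 0.0338). Its duodenal values were 3055, 2725, 3227, 3539 and 2434 CPM, and its call was lost without animal 2, 3 or 5 (adjusted p from 0.0502 to 0.16). Akp3 lies on chromosome 1 from 87124973 to 87127912, and Tmprss15 on chromosome 16 from 78953008 to 79091097 (GRCm38).

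Iron genes differed in both directions along the route of the metal through the cell. Of 15 measured genes of iron absorption, 7 were lower and 3 higher in the jejunum (all genes 2.25% and 3.54%), with a median of −0.46. Slc40a1 encodes ferroportin, which exports iron across the basolateral membrane. It stood at 3034, 1044, 1321, 1145 and 392 CPM in the duodenum and 5.3, 3.3, 4.4, 7.0 and 4.7 CPM in the jejunum (−7.61 ± 0.34, adjusted p = 4e-05), so that the lowest duodenal value was far above the highest jejunal one. Slc40a1 lies on chromosome 1 from 45908068 to 45926523 (GRCm38). Slc11a2, the apical importer of ferrous iron, had 452, 318, 175, 366 and 93.2 CPM in the duodenum and 112, 87.4, 117, 92.8 and 63.8 CPM in the jejunum (−1.39 ± 0.25, adjusted p = 0.0124). The groups overlapped, since animal 5 was low in the duodenum, and the call was lost without animal 2 or 4 (adjusted p from 0.0551 to 0.0622). Cybrd1, the ferric reductase of the duodenal brush border, was listed in the duodenum's table only, at 122, 16.8, 47.6, 27.4 and 2.4 CPM. Heph, the oxidase that works with ferroportin, averaged 727 ± 109 and 766 ± 99.3 CPM (0.08 ± 0.17, adjusted p = 0.834).

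Genes of iron storage and release were lower in the jejunum too. Fth1, the ferritin heavy chain, had 4113, 5318, 8622, 3083 and 4501 CPM in the duodenum and 739.8, 962, 236, 422 and 805 CPM in the jejunum (−3.09 ± 0.38, adjusted p = 0.0021), with no overlap. Ncoa4, the receptor that delivers ferritin to autophagy, averaged 67.0 ± 24.7 and 10.7 ± 2.88 CPM (−2.48 ± 0.29, adjusted p = 0.000994). Epas1, the hypoxia-inducible factor HIF-2α that drives genes of iron uptake, averaged 194 ± 56.2 and 55.7 ± 18.8 CPM (−1.78 ± 0.23, adjusted p = 0.00203). The ferritin light chain gene Ftl1 (−0.79 ± 0.20, call lost without animal 1, 2, 4 or 5 at an adjusted p from 0.0656 to 0.191, and 0.0858 without the animal block) and the metal importer gene Slc39a14 (−0.81 ± 0.20, call lost without animal 1, 2, 3 or 4 at an adjusted p from 0.0713 to 0.135) were lower as well. Tfrc, the transferrin receptor through which cells take iron from blood, ran the other way, with 27.4, 44.1, 11.2, 163 and 26.3 CPM in the duodenum and 269, 220.1, 163, 291 and 76.9 CPM in the jejunum (2.33 ± 0.39, adjusted p = 0.013). The groups overlapped, since animal 4 reached 163 CPM in the duodenum, and the call was lost without animal 1 or 2 (adjusted p from 0.056 to 0.0656). Aco1, which encodes iron regulatory protein 1 and cytosolic aconitase (0.81 ± 0.17, call lost without animal 1, 2 or 3 at an adjusted p from 0.0578 to 0.111), and Mfsd7b, a haem exporter (1.42 ± 0.30, call lost without animal 2 or 5 at an adjusted p from 0.0679 to 0.0809), were also higher in the jejunum. Slc25a37, which carries iron into mitochondria and is on none of the lists, had 6.7, 13.7, 7.5, 42.3 and 35.0 CPM in the duodenum and 133, 152, 209.5, 166 and 153 CPM in the jejunum (3.23 ± 0.39, adjusted p = 0.00239).

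**Figure D3:**
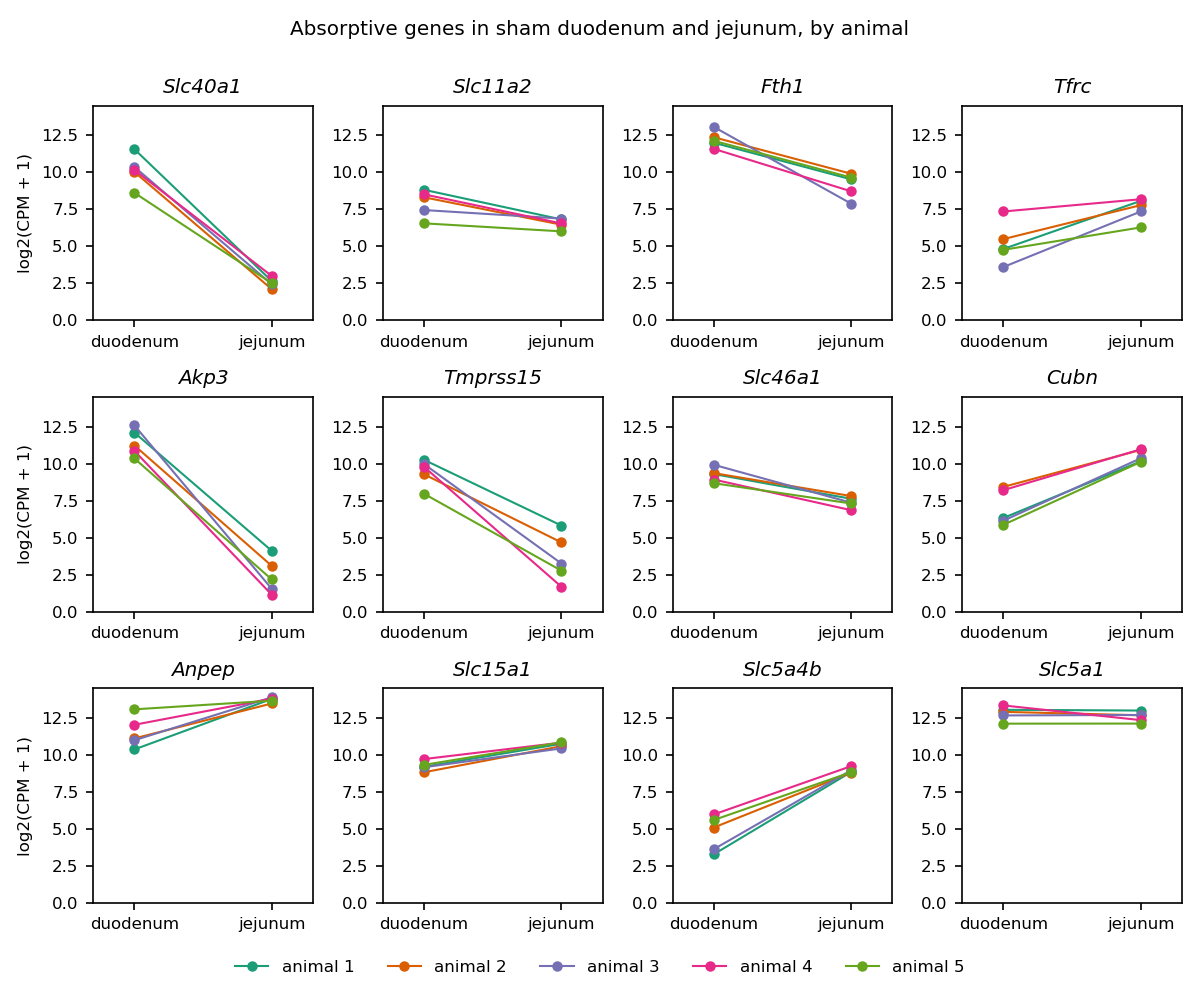
Log2(CPM + 1) of 12 genes of absorption in the duodenum (left point) and the jejunum (right point) of each sham animal, with a line joining the segments of an animal. All 5 lines fall for Slc40a1, Fth1, Akp3, Tmprss15 and Slc46a1 and rise for Cubn, Anpep, Slc15a1 and Slc5a4b, while Slc5a1 has lines in both directions.

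Of 18 measured genes of vitamin uptake 4 were lower and 3 higher in the jejunum (all genes 2.25% and 3.54%), and 5 were lower after rescaling without the pancreatic list, with a median of 0.07. Slc46a1, the proton-coupled folate transporter, had 627, 655, 968, 485 and 408 CPM in the duodenum and 196, 223, 163, 115 and 157 CPM in the jejunum (−1.84 ± 0.19, adjusted p = 0.00062), without overlap. Slc19a1, the reduced folate carrier, averaged 84.6 ± 27.2 and 15.3 ± 5.40 CPM (−2.41 ± 0.25, adjusted p = 0.00063). Slc19a3, a thiamine transporter of the same family, averaged 59.8 ± 16.6 and 7.78 ± 3.04 CPM (−2.84 ± 0.22, adjusted p = 0.000148), while its relative Slc19a2 did not pass the test (0.31 ± 0.20, adjusted p = 0.411). Scarb1, a lipoprotein and carotenoid receptor, averaged 162 ± 69.4 and 24.7 ± 15.9 CPM (−2.85 ± 0.49, adjusted p = 0.0194); its call was lost without animal 1, 2 or 3 (adjusted p from 0.0684 to 0.0969). Those 4 genes are the lower ones.

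The 3 vitamin genes higher in the jejunum serve vitamin B12 and vitamin C. Cubn encodes cubilin, the receptor for the complex of intrinsic factor and vitamin B12. It stood at 79.4, 343, 69.8, 295 and 57.4 CPM in the duodenum and at 1139, 1945, 1314, 2000.4 and 1109 CPM in the jejunum (3.51 ± 0.27, adjusted p = 0.000148), and the groups did not overlap. Amn, its membrane partner amnionless, averaged 68.0 ± 24.8 and 167 ± 47.2 CPM (1.31 ± 0.19, adjusted p = 0.00362). Slc23a1, the sodium-dependent transporter of vitamin C, averaged 34.4 ± 26.3 and 299 ± 48.5 CPM (3.47 ± 0.47, adjusted p = 0.00667). Its relative Slc23a2 had a difference of the opposite sign that did not pass the test (−0.77 ± 0.21, adjusted p = 0.0622). Cubn lies on chromosome 2 from 13276338 to 13491813 (GRCm38).

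Calcium and phosphate genes were called in both directions. Of 11 measured genes of the calcium and vitamin D list 3 were lower and 3 higher in the jejunum (all genes 2.25% and 3.54%); after rescaling without the pancreatic list 4 were lower and 2 higher, and with median-of-ratios scaling 3 and 2. S100g encodes calbindin-D9k, the cytosolic calcium carrier of enterocytes. It had 339.6, 101, 68.8, 18.7 and 54.0 CPM in the duodenum and 9.3, 12.6, 1.9, 2.5 and 3.0 CPM in the jejunum (−3.76 ± 0.35, adjusted p = 0.00058), without overlap. The vitamin D receptor gene Vdr averaged 856 ± 247 and 500.3 ± 60.8 CPM (−0.74 ± 0.20) and did not pass the test (adjusted p = 0.0628), although its groups did not overlap. The calcium pump gene Atp2b1 was lower (−1.02 ± 0.23, call lost without animal 1, 2, 3 or 4 at an adjusted p from 0.0631 to 0.0976, and 0.0742 without the animal block), as was the gene of the cation-permeable claudin Cldn2 (−1.13 ± 0.28, call lost without animal 2, 3, 4 or 5 at an adjusted p from 0.0517 to 0.103). The sodium-phosphate cotransporter gene Slc34a2 stood at 2.7, 6.1, 9.3, 4.0 and 242 CPM in the duodenum and 47.4, 175, 1036, 691 and 870.3 CPM in the jejunum (4.79 ± 0.86, adjusted p = 0.044). Its duodenal value was high in animal 5 alone, the groups overlapped, and the call was lost without animal 1, 2 or 3 (adjusted p from 0.125 to 0.181, and 0.0726 without the animal block). The magnesium transport gene Cnnm4 (0.64 ± 0.15, call lost without any 1 animal at an adjusted p from 0.0611 to 0.17) and the sterol 27-hydroxylase gene Cyp27a1 (0.91 ± 0.23, call lost without any 1 animal at an adjusted p from 0.0657 to 0.128, and 0.105 without the animal block) were higher.

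Of 26 measured brush-border hydrolases 13 were higher in the jejunum and 1, Tmprss15, was lower (all genes 3.54% and 2.25%), with a median of 0.75 against 0.00 over all genes, and the counts were the same after either rescaling. Anpep, aminopeptidase N, had 1316, 2206, 2027, 4175 and 8614 CPM in the duodenum and 14041, 11337, 15111, 14220.0 and 12915 CPM in the jejunum (2.21 ± 0.35, adjusted p = 0.00662). The groups did not overlap, and the duodenum of animal 5 came nearest to the jejunum. Enpep, the glutamyl aminopeptidase, averaged 1222 ± 722 and 4459.6 ± 790.4 CPM (2.03 ± 0.30, adjusted p = 0.00425). Ace, the angiotensin-converting enzyme, which also trims peptides at the brush border, averaged 1922 ± 627 and 5354 ± 734 CPM (1.53 ± 0.23, adjusted p = 0.00447). The peptidase genes Xpnpep2 (2.46 ± 0.19), Naaladl1 (2.39 ± 0.19), Mep1a (1.58 ± 0.17), Dpp4 (1.23 ± 0.19) and Dpep1 (0.87 ± 0.16, call lost without animal 4 at an adjusted p of 0.0511) were higher too. Mme, a further peptidase of the list, did not pass the test (0.16 ± 0.20, adjusted p = 0.682).

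Enpp7, the alkaline sphingomyelinase, had 11.4, 30.1, 39.0, 48.9 and 235 CPM in the duodenum and 358, 364, 461, 628 and 706 CPM in the jejunum (3.44 ± 0.38, adjusted p = 0.0016), and animal 5 was again the highest in the duodenum. Asah2, the neutral ceramidase that acts on the product of that step, averaged 1143 ± 197 and 3224 ± 322 CPM (1.51 ± 0.18, adjusted p = 0.00121). Among the disaccharidases, Lct (lactase, 1.08 ± 0.22, call lost without animal 2 or 5 at an adjusted p from 0.0539 to 0.0848) and Treh (trehalase, 0.83 ± 0.16, call lost without animal 2 at an adjusted p of 0.0829) were higher. Sis (sucrase-isomaltase, 0.66 ± 0.27, adjusted p = 0.189) and Mgam (maltase-glucoamylase, −0.60 ± 0.25, adjusted p = 0.21) did not pass the test. Nudt4, the remaining higher member (1.12 ± 0.19), encodes a phosphohydrolase of inositol pyrophosphates and diadenosine polyphosphates rather than a digestive enzyme. The structural genes of the list, Vil1 (−0.13 ± 0.23), Cdhr2 (0.03 ± 0.18), Cdhr5 (0.00 ± 0.18) and Myo1a (−0.23 ± 0.20), did not pass the test.

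All 18 measured genes of amino acid and peptide transport had a difference above 0, and 10 of them passed the test as higher in the jejunum (all genes 3.54%), with a median of 0.91. After median-of-ratios scaling 9 were called; after rescaling without the pancreatic list 8 were called and 17 of the 18 lay above 0. Slc15a1, the proton-coupled importer of di- and tripeptides, had 586, 452, 571, 838 and 638 CPM in the duodenum and 1717, 1532, 1382, 1809 and 1838 CPM in the jejunum (1.44 ± 0.16, adjusted p = 0.000946), without overlap. Slc3a1, the heavy chain of the cystine and dibasic amino acid exchanger, averaged 348 ± 69.5 and 678 ± 38.7 CPM (0.98 ± 0.15, adjusted p = 0.00554), whereas its light chain gene Slc7a9 did not pass the test (0.12 ± 0.16, adjusted p = 0.716). The basolateral pair Slc3a2 (1.13 ± 0.19) and Slc7a8 (1.14 ± 0.18) was higher, each without overlap. Slc6a20a, a transporter of proline, averaged 1000.3 ± 467 and 2161 ± 339.5 CPM (1.22 ± 0.25, adjusted p = 0.0196), its call being lost without animal 2, 3 or 5 (adjusted p from 0.0584 to 0.0691). Its near-identical neighbour Slc6a20b differed by 1.81 ± 0.23, and the division of reads between the pair is uncertain. Slc16a10, which passes aromatic amino acids to the blood (1.02 ± 0.18, call lost without animal 2 at an adjusted p of 0.0557), Slc7a7 (0.78 ± 0.20, call lost without animal 1, 2, 3 or 4 at an adjusted p from 0.0906 to 0.197), Slc43a2 (0.85 ± 0.19, call lost without animal 1, 2, 4 or 5 at an adjusted p from 0.0587 to 0.12) and Slc7a15 (0.76 ± 0.19, call lost without any 1 animal at an adjusted p from 0.0673 to 0.116, and 0.0789 without the animal block) were the remaining higher members. Slc6a19, the main importer of neutral amino acids, averaged 1911 ± 624 and 3341 ± 720.0 CPM (0.85 ± 0.22) and lay just outside the threshold (adjusted p = 0.0501).

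Among 15 measured genes of sugar transport 3 were higher in the jejunum and 0 lower (all genes 3.54% and 2.25%). Slc5a1, the sodium-glucose cotransporter SGLT1, had 8417, 7655, 6473, 10332 and 4403 CPM in the duodenum and 8141, 6517, 6613, 5198 and 4419.8 CPM in the jejunum (−0.25 ± 0.21, adjusted p = 0.536). The facilitative transporters Slc2a2 (−0.55 ± 0.25, adjusted p = 0.235) and Slc2a5, which carries fructose (−0.09 ± 0.15, adjusted p = 0.782), did not pass the test either. Slc5a4b, a member of the SGLT3 pair, had 8.7, 33.0, 11.3, 61.7 and 47.3 CPM in the duodenum and 457, 443, 495, 600.5 and 452 CPM in the jejunum (4.22 ± 0.37, adjusted p = 0.00058). The groups did not overlap, and the jejunal values lay close together. Its near-identical partner Slc5a4a averaged 82.3 ± 41.1 and 235 ± 41.1 CPM (1.63 ± 0.27, adjusted p = 0.00745). Slc5a9, a carrier of mannose, was the third (0.76 ± 0.18), with its call lost without animal 1, 2, 3 or 5 (adjusted p from 0.086 to 0.138).

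**Figure D4:**
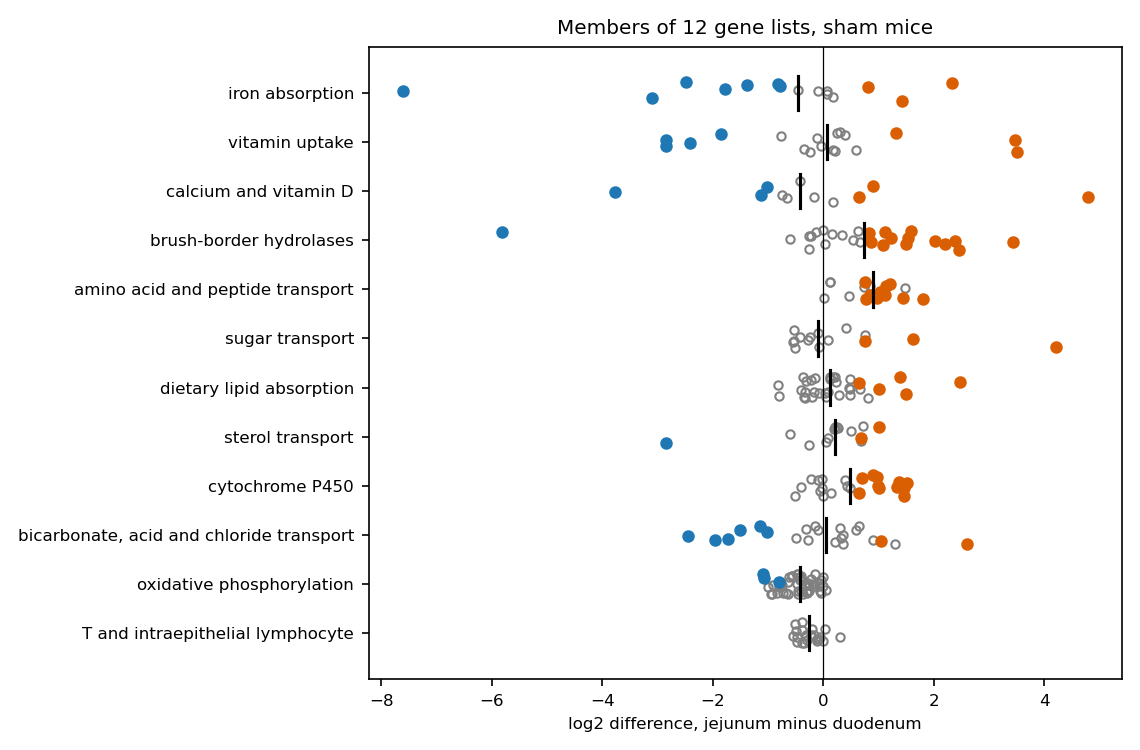
Log2 difference between jejunum and duodenum for each measured member of 12 gene lists in sham mice, without pancreatic acinar genes. Orange and blue points passed the test as higher or lower in the jejunum, open points did not, and a black bar marks the median of the members shown; all 18 genes of amino acid and peptide transport lie above 0.

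Of 34 measured genes of dietary lipid absorption 5 were higher and 0 lower in the jejunum (all genes 3.54% and 2.25%), with a median of 0.10. Under either rescaling 5 were higher and 2 lower. Cd36, a fatty acid receptor, had 586, 609.6, 506, 684 and 464 CPM in the duodenum and 1509.7, 1533, 2395, 1482 and 1293 CPM in the jejunum (1.5 ± 0.19, adjusted p = 0.00178), without overlap. The acyl-CoA synthetase gene Acsl3 averaged 27.6 ± 14.9 and 74.0 ± 36.7 CPM (1.38 ± 0.15, adjusted p = 0.000855, and 0.0643 without the animal block). The carboxylesterase genes Ces2a (2.47 ± 0.53) and Ces2e (1.00 ± 0.23), members of a near-identical family, and the glycerolphosphate acyltransferase gene Agpat9 (0.64 ± 0.15) completed the 5. Those 3 calls were not stable: that of Ces2a was lost without animal 1, 2, 3 or 4 (adjusted p from 0.0864 to 0.22), that of Ces2e was lost without animal 1, 2, 4 or 5 (adjusted p from 0.0539 to 0.139) and that of Agpat9 was lost without any 1 animal (adjusted p from 0.0524 to 0.184). The genes of chylomicron assembly did not pass the test: Apob averaged 11353 ± 4890.2 and 19161 ± 4334 CPM (0.81 ± 0.22, adjusted p = 0.0585) and Mttp 5429.5 ± 1726 and 7299 ± 813 CPM (0.48 ± 0.22, adjusted p = 0.239). Fabp1 and Fabp2, the fatty acid binding proteins of enterocytes, had differences of −0.33 ± 0.44 and 0.48 ± 0.22.

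Of 15 measured genes of sterol transport 2 were higher and 1, Scarb1, was lower (all genes 3.54% and 2.25%), and 1 was higher under either rescaling. Npc1l1, through which cholesterol enters the cell, averaged 795 ± 148 and 1277 ± 193 CPM (0.69 ± 0.17, adjusted p = 0.0476). Its call was lost without any 1 animal (adjusted p from 0.0701 to 0.136), and after rescaling without the pancreatic list its adjusted p was 0.0739. Abca1, the cholesterol efflux pump, differed by 1.02 ± 0.23, its call being lost without animal 1, 2 or 3 (adjusted p from 0.0668 to 0.125, and 0.0586 without the animal block). Of 23 measured genes of cholesterol synthesis 2 were higher and 1 lower (all genes 3.54% and 2.25%), and 2 were lower after rescaling without the pancreatic list. Stard4, a sterol carrier, was among the higher ones (0.97 ± 0.17, call lost without animal 2 at an adjusted p of 0.0614), and Acat2, an acetoacetyl-CoA thiolase, was the lower one (−0.92 ± 0.18, call lost without animal 2 or 4 at an adjusted p from 0.0551 to 0.0742). Srebf1, the transcription factor of fatty acid synthesis, averaged 97.7 ± 42.0 CPM in the duodenum and 254 ± 79.7 CPM in the jejunum (1.42 ± 0.17, adjusted p = 0.00136). Elovl6, which lengthens palmitate, ran the other way, at 316 ± 131 and 72.9 ± 37.4 CPM (−2.16 ± 0.22, adjusted p = 0.00058), and the other 13 measured genes of that pathway did not pass the test.

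Single genes of ketone body use, sulfate activation and transport were lower in the jejunum. Oxct1, the enzyme by which cells use ketone bodies, had 372, 209.6, 321, 156 and 519 CPM in the duodenum and 72.3, 61.8, 45.2, 25.8 and 36.4 CPM in the jejunum (−2.65 ± 0.25, adjusted p = 0.000553), without overlap. Papss2, which makes the sulfate donor PAPS, had 12007, 8845, 8302, 7738 and 4540.1 CPM in the duodenum and 2455, 2253, 1518, 946 and 708 CPM in the jejunum (−2.48 ± 0.20, adjusted p = 0.000154). Slc16a9, a plasma membrane transporter of the monocarboxylate family, had 344, 366, 265, 316 and 67.5 CPM in the duodenum and 3.1, 1.4, 0.2, 0.2 and 1.0 CPM in the jejunum (−6.92 ± 0.39, adjusted p = 0.00012). Slc37a2, a sugar-phosphate transporter, averaged 51.9 ± 25.2 and 1.64 ± 0.832 CPM (−4.22 ± 0.27, adjusted p = 0.000108). Ucp2, a mitochondrial carrier (−1.37 ± 0.21), Pcx, pyruvate carboxylase (−1.0 ± 0.17), and Pfkfb3, which sets the level of the glycolytic activator fructose 2,6-bisphosphate (−1.55 ± 0.18), were lower too.

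Further genes had large differences in either direction. On the lower side Tspan12, a tetraspanin, differed by −2.92 ± 0.30, Gsta4, a glutathione transferase, by −2.78 ± 0.27 and Capg, an actin-capping protein, by −2.78 ± 0.22. On the higher side Pmp22, a membrane protein best known from myelin, had 10.1, 42.5, 12.3, 12 and 219 CPM in the duodenum and 361, 703, 755, 1147 and 1076 CPM in the jejunum (4.72 ± 0.59, adjusted p = 0.00849, call lost without animal 1 or 3 at an adjusted p from 0.0751 to 0.0791). Slc5a12, a sodium-coupled lactate carrier, averaged 95.7 ± 86.4 and 1044 ± 200.0 CPM (4.19 ± 0.69), its call being lost without animal 2, 3 or 5 (adjusted p from 0.0508 to 0.147). Susd2, a sushi-domain membrane protein, averaged 51.0 ± 52.0 and 507 ± 224 CPM (3.63 ± 0.33, adjusted p = 0.00058). Aqp1, a water channel, had 17.3, 70.7, 50.2, 83.9 and 22.6 CPM in the duodenum and 311, 252, 379.5, 389 and 294 CPM in the jejunum (2.93 ± 0.31, adjusted p = 0.000884), without overlap. Pros1, protein S of blood clotting (2.75 ± 0.30), Hspa12a, a member of the heat shock protein family (3.14 ± 0.36), and Clca6, of the near-identical Clca group (2.60 ± 0.28), were higher as well. Over the 30 genes with the largest differences, 15 in each direction, the difference was smallest in animal 5 for 15 genes, in animal 2 for 6, in animal 4 for 5, in animal 1 for 4 and in animal 3 for 0. Over all 377 higher genes it was smallest most often in animal 4 (160 genes, 42.4%), then in animal 5 (109, 28.9%). Over all 240 lower genes it was smallest most often in animal 5 (74, 30.8%), then in animal 1 (64, 26.7%).

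**Figure D5:**
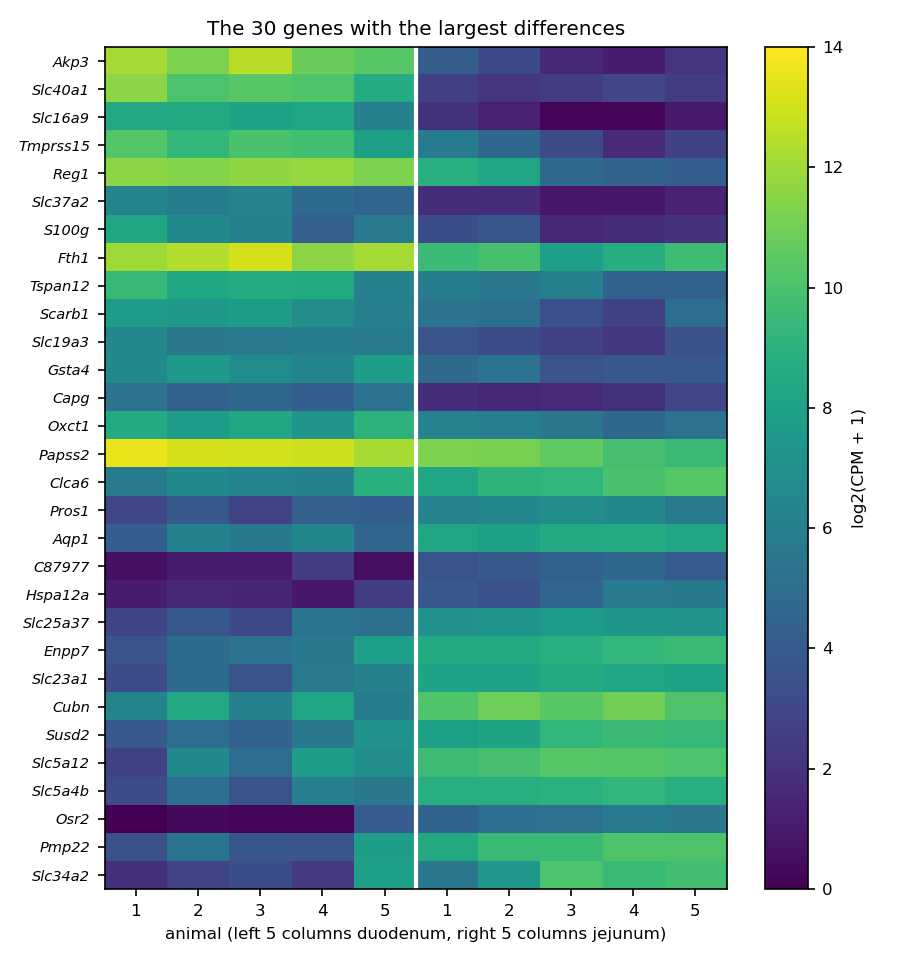
Log2(CPM + 1) of the 30 genes with the largest differences, 15 lower (upper rows) and 15 higher in the jejunum, in the 10 sham libraries. Columns are animals 1 to 5 of the duodenum, then of the jejunum, and the duodenum of animal 5 is the brightest of the 5 for Osr2, Pmp22, Slc34a2 and Enpp7 among the lower rows.

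Promoters of those 30 genes are shown where they held a letter pattern tied to intestinal transcription factors. The RefSeq promoter table of build GRCm38.p6 held 20 of the 30, and 4 of these contained at least 1 of 3 patterns in the 250 bases before the annotated start: AGATAA for GATA factors, TTTATTG or TTTATGG for CDX factors, and CAAAGTCCA for HNF4, on either strand. Capitals mark the match, which begins 146 bases before the start in Tmprss15 (CDX), 44 in Fth1 (CDX), 174 in Papss2 (GATA) and 110 in Enpp7 (GATA).
Tmprss15, chr16:79091098-79091347 on the minus strand: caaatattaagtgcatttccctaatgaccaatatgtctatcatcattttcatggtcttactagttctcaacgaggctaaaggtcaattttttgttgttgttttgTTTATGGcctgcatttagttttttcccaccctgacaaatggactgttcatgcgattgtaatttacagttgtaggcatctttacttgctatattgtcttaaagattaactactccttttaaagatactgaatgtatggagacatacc
Fth1, chr19:9980350-9980599 on the plus strand: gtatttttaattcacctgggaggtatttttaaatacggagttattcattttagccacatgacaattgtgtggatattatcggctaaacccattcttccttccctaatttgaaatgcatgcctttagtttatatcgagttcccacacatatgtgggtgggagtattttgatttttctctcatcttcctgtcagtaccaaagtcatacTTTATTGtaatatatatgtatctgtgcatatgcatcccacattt
Papss2, chr19:32595465-32595714 on the plus strand: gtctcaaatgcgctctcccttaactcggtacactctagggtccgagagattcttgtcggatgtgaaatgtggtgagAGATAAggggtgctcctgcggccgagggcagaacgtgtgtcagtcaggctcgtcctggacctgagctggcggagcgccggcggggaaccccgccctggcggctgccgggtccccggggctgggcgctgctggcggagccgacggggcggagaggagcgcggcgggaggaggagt
Enpp7, chr11:118987931-118988180 on the plus strand: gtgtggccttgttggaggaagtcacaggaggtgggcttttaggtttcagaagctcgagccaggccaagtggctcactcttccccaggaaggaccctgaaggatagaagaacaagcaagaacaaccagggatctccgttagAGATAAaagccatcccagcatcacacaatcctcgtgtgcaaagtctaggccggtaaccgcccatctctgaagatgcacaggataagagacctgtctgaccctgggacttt
Enpp7 was higher in the jejunum and the other 3 were lower. Each window ends at the outermost annotated start, which need not be the start in use in these cells. Among all genes tested 8217 had a promoter in the table. The GATA letters stood in 6.11% of those promoters, in 6.79% of the ones of genes higher in the jejunum and in 9.44% of those of genes lower there. For the CDX letters the shares were 3.94%, 5.36% and 5.00%, and for the HNF4 letters 0.402%, 1.43% and 1.11%. A match describes letters and is no binding site.

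Of 29 measured transcription factors that mark the duodenum or other regions of the gut 4 were higher and 2 lower in the jejunum (all genes 3.54% and 2.25%), with a median of 0.16. Pdx1, the homeobox factor of the pancreas and the proximal duodenum, was listed in the duodenum's table only, at 101, 44.4, 76.2, 37.2 and 21.9 CPM. It was higher in animals 1, 2 and 3 than in animals 4 and 5, as the pancreatic transcripts were, and their part in its values was not tested. Meis2, a homeobox factor, had 83.6, 38.7, 44.8, 52.1 and 18.7 CPM in the duodenum and 8.5, 9.6, 8.5, 6.2 and 4.2 CPM in the jejunum (−2.43 ± 0.22, adjusted p = 0.000394), without overlap. Mecom, a zinc finger factor, averaged 12.7 ± 7.16 and 1.74 ± 0.488 CPM (−2.18 ± 0.29, adjusted p = 0.00213).

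Osr2, a zinc finger factor, had 0.0, 0.3, 0.2, 0.2 and 16.1 CPM in the duodenum and 22.2, 33.2, 37.2, 51.9 and 46.5 CPM in the jejunum (4.24 ± 0.52, adjusted p = 0.00379). The duodenum library of animal 5 was the only one of its segment above 1 CPM, and the call was lost without animal 1 (adjusted p = 0.0584). Tfcp2l1 (1.00 ± 0.18, call lost without animal 4 at an adjusted p of 0.0549) and Maf (0.83 ± 0.19, call lost without animal 2, 3, 4 or 5 at an adjusted p from 0.0701 to 0.162) were higher too. The factors Gata4 (−0.34 ± 0.15, adjusted p = 0.215), Cdx2 (0.21 ± 0.22, adjusted p = 0.619) and Hnf4a (0.11 ± 0.18, adjusted p = 0.764) did not pass the test. Gata4 averaged 174 ± 21.6 CPM in the duodenum and 137 ± 16.9 in the jejunum. None of the Hox genes of the list was in both tables.

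Genes of acid and bicarbonate handling were called in both directions. Of 22 measured genes of bicarbonate, acid and chloride transport 6 were lower in the jejunum and 2 higher (all genes 2.25% and 3.54%). Car2 and Car9 encode carbonic anhydrases, which form bicarbonate from carbon dioxide. Car2 had 439, 178, 243, 111 and 146 CPM in the duodenum and 68.3, 50.4, 45.4, 39.6 and 50.9 CPM in the jejunum (−1.96 ± 0.20, adjusted p = 0.000599), and Car9 averaged 178 ± 69.4 and 61.9 ± 22.2 CPM (−1.5 ± 0.15, adjusted p = 0.00058). Otop3, a proton channel, averaged 241 ± 96.0 and 48.6 ± 33.0 CPM (−2.45 ± 0.34, adjusted p = 0.00423). Slc4a7, a sodium-bicarbonate importer, had 6851, 2599.7, 2182, 3965 and 716 CPM in the duodenum and 1439, 1036, 863, 588 and 368 CPM in the jejunum (−1.72 ± 0.26, adjusted p = 0.0043, and 0.0769 without the animal block). Kcnq1, a potassium channel (−1.01 ± 0.19), and Slc9a3, the apical sodium-proton exchanger (−1.14 ± 0.27, call lost without animal 2, 3, 4 or 5 at an adjusted p from 0.0727 to 0.142, and 0.0595 without the animal block), were the other lower members. Cftr, the chloride channel through which bicarbonate also leaves the cell, averaged 127 ± 52.8 and 142 ± 40.9 CPM (0.21 ± 0.24, adjusted p = 0.664). The 2 higher members were Clca6 and AI747448, a gene listed under an expressed-sequence name (1.04 ± 0.17, call lost without animal 2 at an adjusted p of 0.0525).

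Cytochromes P450 are oxidases of foreign compounds, sterols and fatty acids. Of 23 measured P450 genes on the list 11 were higher in the jejunum and 0 lower (all genes 3.54% and 2.25%), with a median of 0.48. After rescaling without the pancreatic list 8 were called, and 7 with median-of-ratios scaling. Among all 33 measured genes with a Cyp symbol 11 (33.3%) were higher and 0 lower. Their median was 0.16, and 20 of the 33 lay above 0. Cyp2j6, an arachidonic acid epoxygenase, had 509, 759.9, 544, 731 and 527 CPM in the duodenum and 1700.3, 2163, 2004, 1681 and 1257 CPM in the jejunum (1.52 ± 0.17, adjusted p = 0.000884), without overlap. Cyp2j9 (1.46 ± 0.23) and Cyp2u1 (1.46 ± 0.21) were the other P450 genes whose calls held without any 1 animal. Cyp3a11 and Cyp3a13, which belong to the main group of drug-metabolising P450 enzymes, did not pass the test (−0.51 ± 0.25, adjusted p = 0.281, and −0.23 ± 0.22, adjusted p = 0.588). Near-identical copies in the Cyp2 and Cyp3a groups may share reads.

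Of 28 measured conjugating enzymes 5 were higher and 4 lower (all genes 3.54% and 2.25%). Gsta4 had 104, 189, 113, 82.8 and 218 CPM in the duodenum and 27.9, 38.6, 10.8, 12.7 and 13.6 CPM in the jejunum, without overlap. Mgst1, a microsomal glutathione transferase, averaged 101 ± 52.3 and 324 ± 69.8 CPM (1.80 ± 0.28, adjusted p = 0.0062). Outside that list, Ephx1, the microsomal epoxide hydrolase, averaged 19.6 ± 5.82 and 3.00 ± 0.725 CPM (−2.33 ± 0.17, adjusted p = 0.000148). Maob, a monoamine oxidase, averaged 49.8 ± 22.6 and 235 ± 35.0 CPM (2.31 ± 0.24, adjusted p = 0.00062). In the retinoid list 3 of 20 genes were higher (all genes 3.54%), among them the dehydrogenase genes Rdh7 (1.14 ± 0.17) and Dhrs9 (1.54 ± 0.26), and 1, Scarb1, was lower. The third higher gene was Dhrs3, a retinal reductase (1.11 ± 0.22, call lost without animal 2 at an adjusted p of 0.0635).

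Hormone genes of enteroendocrine cells were called in both directions. Of 9 measured hormone genes 2 were lower and 2 higher in the jejunum (all genes 2.25% and 3.54%). Cck, the hormone that releases bile and pancreatic enzymes, had 30.5, 31.0, 45.7, 21.4 and 44.6 CPM in the duodenum and 16.0, 15.1, 6.4, 3.9 and 9.8 CPM in the jejunum (−1.76 ± 0.27, adjusted p = 0.0043), without overlap. Sct, secretin, averaged 31.4 ± 10.9 and 16.1 ± 4.94 CPM (−0.90 ± 0.21, adjusted p = 0.0331), and its call was lost without animal 1, 3, 4 or 5 (adjusted p from 0.068 to 0.0954, and 0.0602 without the animal block). Nts, neurotensin, had 4.6, 10.9, 5.9, 6.9 and 41.1 CPM in the duodenum and 23.9, 52.3, 40.2, 60.6 and 106 CPM in the jejunum (2.24 ± 0.22, adjusted p = 0.00058), and the groups overlapped. Tac1, a tachykinin precursor, was higher at a low level, 0.700 ± 0.464 and 2.50 ± 0.616 CPM (1.07 ± 0.18, call lost without animal 2 at an adjusted p of 0.0511). Gip, made mainly in the proximal gut, averaged 105 ± 43.7 and 76.1 ± 27.1 CPM (−0.43 ± 0.39, adjusted p = 0.568). Of 16 measured genes of the endocrine secretory machinery 0 were called, with Chga at −0.19 ± 0.16 and Chgb at −1.01 ± 0.39.

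Genes of the other epithelial cell types were called in both directions. Their shares are to be read against the 3.54% of all genes that were higher and the 2.25% that were lower. Goblet cell genes had 10.5% higher and 5.26% lower, and Paneth cell and antimicrobial genes 7.14% each way. Lower calls made up 11.8% of stem cell genes and 7.69% of tuft cell genes, with 0 higher. These lists are short, so each share rests on few genes. Of 19 measured goblet cell genes 2, Guca2a and Clca1 (1.01 ± 0.23, call lost without animal 1, 2, 3 or 4 at an adjusted p from 0.0765 to 0.112, and 0.0977 without the animal block), were higher and 1, Spink4 (−1.18 ± 0.25, call lost without animal 3, 4 or 5 at an adjusted p from 0.0575 to 0.0753), was lower, while Muc2, the gel-forming mucin, did not pass the test (0.34 ± 0.15, adjusted p = 0.233). Guca2a, guanylin, a peptide that stimulates fluid secretion, had 12.8, 21.8, 14, 27.1 and 12.3 CPM in the duodenum and 73.7, 52.2, 138, 141 and 75.9 CPM in the jejunum (2.35 ± 0.24, adjusted p = 0.00062). Of 14 measured Paneth cell and antimicrobial genes, Itln1, a lectin, was higher (1.35 ± 0.22) and Reg1 lower. Of 17 measured stem cell genes 2 were lower, Prom1 (−1.14 ± 0.15) and Rnf43 (−0.87 ± 0.20, call lost without animal 1, 2, 3 or 4 at an adjusted p from 0.0573 to 0.109). Plcg2, the only called gene of 13 tuft cell genes, differed by −0.90 ± 0.19; its call was lost without animal 2, 3, 4 or 5 (adjusted p from 0.0697 to 0.0769, and 0.157 without the animal block). Of the villus tip list 3 of 18 genes were higher and 0 lower, and of the villus base list 4 of 19 were lower and 0 higher (all genes 3.54% and 2.25%). The tip genes were Pmp22, Egfr, an epidermal growth factor receptor (1.05 ± 0.18), and Nt5e, an ectonucleotidase (1.80 ± 0.36, call lost without animal 2, 3 or 4 at an adjusted p from 0.0608 to 0.122, and 0.0873 without the animal block). The base genes included Reg1, Spink4 and the glutathione transferase gene Gsta1 (−1.73 ± 0.40, call lost without animal 2, 3, 4 or 5 at an adjusted p from 0.0706 to 0.19). Summed CPM of the tip list was 14251 to 39456 in the duodenum and 21764 to 46982 in the jejunum. That of the base list was 11544 to 29254 and 5905 to 10860.0. The 29254 CPM was the duodenum of animal 5, and the next duodenal sum was 16072. In the same library the Paneth cell and antimicrobial list summed to 20486 CPM, against 3624 to 4664 in the other duodenum libraries. The tuft cell list summed to 770 CPM there, against 200 to 221 in the others. The part of the position along the villus in the other differences was not tested.

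The duodenum and jejunum of 3 bypassed mice, animals R2, R4 and R5, which the sham comparison does not use, were fitted in the same way. The limb that their jejunal tissue belongs to is not stated in the labels, and the difference between the operations was not tested. In these animals 84 genes (0.788% of all) passed the test, 27 higher (0.253%) and 57 lower (0.535%) in the jejunum, with 1068 at an unadjusted p under 0.05. Without animal R2 the number was 12, and without R4 and R5 it was 122 and 118. Of the 377 genes higher in the sham jejunum 55 (14.6%) were higher in all 3 bypassed animals, against 10.1% of all genes. Of them 4 were called in that direction, Npc1l1 (1.17 ± 0.26), Nts (1.48 ± 0.33), Naaladl1 (1.80 ± 0.28) and Fbxo32 (2.04 ± 0.47), and 4 in the other, Cd36 (−2.08 ± 0.32), Ugt2a3 (−1.56 ± 0.32), Aadac (−2.22 ± 0.29) and Deptor (−1.77 ± 0.30). In the sham animals the calls of Ugt2a3, Fbxo32, Aadac and Deptor were lost without animal 2 (adjusted p = 0.0754), lost without animal 2, 3, 4 or 5 (adjusted p from 0.0673 to 0.123), lost without animal 1, 2, 3 or 5 (adjusted p from 0.0765 to 0.139, and 0.0605 without the animal block) and lost without any 1 animal (adjusted p from 0.0592 to 0.211, and 0.0663 without the animal block), respectively. Of the 240 lower genes 71 (29.6%) were lower in all 3, against 21.3% of all genes, with 14 called in that direction and 1, Slc9a3 (1.45 ± 0.29), in the other. Fbxo32, Aadac and Deptor were named after their values were seen. Pnlip stood at 35.8, 91.0 and 3.5 CPM in the duodenum of R2, R4 and R5. Akp3 differed by −2.90 ± 0.54 (adjusted p = 0.0065) in the bypassed mice, Tmprss15 by −5.49 ± 0.72 (adjusted p = 0.0606) and Slc40a1 by −1.70 ± 0.56 (adjusted p = 0.255). Slc40a1 had 55.5, 10.8 and 10.5 CPM in their duodenum and 4.0, 9.0 and 3.5 CPM in their jejunum. Reg1, Otop3, Slc4a7 and Papss2 were among the 14 lower genes, at −4.55 ± 0.27, −2.45 ± 0.51, −1.86 ± 0.27 and −1.58 ± 0.30. Anpep differed by 0.04 ± 0.38 (adjusted p = 0.985) and Cubn by −0.08 ± 0.60 (adjusted p = 0.982).

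Genes listed for 1 segment have no value in the other and no fold. The duodenum's table held 267 genes that the jejunum's table did not, and another 358 genes were listed for the jejunum alone. Sham and bypassed libraries counted together for a listing, so these counts are not differences between sham segments. Hmmr, listed for the duodenum alone, had 0.2 to 1.3 CPM in its sham libraries and up to 25.0 CPM in its bypassed ones. Of the 10 with the highest median in the duodenum, 8 belong to the pancreatic acinar list; the other 2 are Pdx1 and Tff2, a trefoil peptide of gastric and Brunner glands. Tff2 stood at 67.1, 37.2, 49.2, 0.3 and 0.0 CPM, high in the same 3 animals as the pancreatic transcripts. The genes listed for the jejunum alone were low: after March2, Supt20 and an identifier without a symbol, whose values ranged from 9.0 to 27.6 CPM, the highest median was that of Map3k6, a kinase, at 5.0 CPM. Tnfsf15, a cytokine of the tumour necrosis factor family, had 3.0, 8.2, 4.8, 4.4 and 7.6 CPM and P2ry4, a nucleotide receptor of the epithelium, 2.2, 3.4, 4.8, 3.8 and 9.1 CPM.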

How the data were processed

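Libraries of villi from duodenum and jejunum were sequenced by the submitters. The deposited values are CPM per gene with 1 decimal, with reads counted by HTSeq on GRCm38 per the submitters' processing notes. The aligner, strand setting and handling of reads with several matches, not given in the sources used here, are unknown. The decimals of the CPM did not give back whole reads, so no count test was run. The deposited tables hold genes with at least 1 CPM in at least 4 libraries, sham or bypassed, which was checked on the files. Gene names turned to dates by a spreadsheet, 17 and 20 in the duodenum and jejunum tables, were restored from Ensembl identifiers. A pancreas-rich library lowers the CPM of its other genes.

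Differences were tested with limma 3.58.1 in R 4.3.3 (trend and robust) on log2(CPM + 1), with the animal as a block, two-sided, Benjamini-Hochberg over 10663 genes, threshold 0.05. The design had provided for counts or CPM, and its CPM branch was used. The pairing comes from animal codes in the labels. Same-animal deviations from the segment means correlated across genes at 0.142, −0.047, −0.224, −0.033 and 0.295. Those of different animals correlated at −0.379 to 0.318, a range that holds all 5 same-animal values. Of 100 genes each simulated with log2 differences of 1 and 2, 63 and 92 were recovered, with 7 false among 162 calls. The simulated errors were normal, independent between genes and of equal spread in all libraries, and very low genes were given no difference. The real duodenum libraries differ in pancreatic transcripts, so 7 of 162 is no false-call rate for the 617 calls. Named were the 15 largest differences per direction (mean at least 5 CPM, same direction in 5 animals, not pancreatic, no predicted-gene name), up to 4 members per list by p and 2 by CPM, further list members with their values, and the 10 genes with the highest median in 1 table. Members and lists were chosen with earlier results of these data known. Alternatives were 2 rescalings, pseudocount 0.1, a 5 CPM filter, no block, leaving out each animal, library weights and removal of a length trend. Animals 4 and 5 alone were a further one, as was their duodenum against all jejunum libraries without the block. Leaving out each bypassed animal was chosen after seeing the data. Promoters came from the RefSeq table of GRCm38.p6. Figures were drawn with matplotlib 3.10.9 in Python 3.11.15. The other 35 samples are not analysed here. Results for some members of the lists are not reported here.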

Additional observations from a re-analysis of the deposited data

Results flagged for a closer look

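In some groups of 5 libraries 1 value stood far from the rest, its gap to the nearest other value exceeding the critical share of the group's range (0.71, Dixon's 95% value for 5 samples). This held for 38 of the 338 groups formed by the named genes and the 2 segments. Chance flags about 1 in 20 groups of normally distributed values. The values here are untransformed CPM, and the groups share libraries and hold genes picked for their differences. Whether 38 exceeds chance was not tested. The duodenum of animal 5 was high for Ces2a (546 against 78.7), Clca6 (478 against 99.8), Cldn2 (11.9 against 5.3), Dpep1 (449 against 316), Enpp7 (235 against 48.9), Fabp1 (3638 against 1115), Fabp2 (10807 against 5376) and Nr0b2 (12.4 against 6.9), each given in CPM with the nearest other value of the segment. The same library was high for Nts (41.1 against 10.9), Osr2 (16.1 against 0.3), Plcg2 (60.4 against 23.8), Pmp22 (219 against 42.5), Slc34a2 (242 against 9.3), Spink4 (16.2 against 8.0) and Susd2 (141 against 48.6). It was low for Cyp3a11 (1155 against 2292) and Rnf43 (24.7 against 41.0). In animal 4 the duodenum was high for Apob (20020.0 against 9713), Cyp2u1 (12.5 against 7.6), Dhrs3 (63.1 against 46.1), Sis (15391 against 6971), Slc3a2 (396 against 276) and Tfrc (163 against 44.1). The duodenum of animal 1 was high for S100g (339.6 against 101) and Slc19a3 (88.6 against 57.8). The duodenum of animal 2 was low for Cnnm4 (100.2 against 145) and Slc2a5 (230.3 against 320.5). The duodenum of animal 3 was high for Pfkfb3 (249 against 118) and Vdr (1276 against 825). The jejunum of animal 3 was high for Cd36 (2395 against 1533), Dhrs3 (212 against 96.0), Gata4 (166 against 135) and Slc28a1 (554 against 491). The jejunum of animal 3 was low for Gip (29.3 against 78.3) and Vil1 (1098 against 1719). The jejunum of animal 5 was high for Capg (6.9 against 3.1) and Plcg2 (24.6 against 12). The jejunum of animal 1 was high for Cldn2 (3.1 against 1.6). By library, 17 of the 38 values belong to the duodenum of animal 5, 6 each to the duodenum of animal 4 and the jejunum of animal 3, and at most 2 to any other library.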

How the results depend on the processing

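The 138 named genes that passed the test kept their sign under every alternative run, all of which use libraries that also chose the genes. The call held for 76 of them under all alternatives but those resting on 2 duodenum libraries, and for 20 under these too. Of 10663 genes, 617 were called (377 higher and 240 lower in the jejunum); leaving out 1 animal in turn gave 224 to 568 calls, of which 127 to 334 were higher and 97 to 253 lower, with the lowest counts without animal 2, 342 without animal 3 (214 and 128) and 400 without animal 4 (278 and 122). Animals 4 and 5 alone gave 247 calls (127 and 120), 165 of them among the 617. The duodenum of animals 4 and 5 against all jejunum libraries, fitted without the animal block, gave 43 (30 and 13), all among the 617. Library weights gave 1024 (640 and 384). Both comparisons on 2 duodenum libraries have fewer samples and also leave out the pancreas-rich duodenum libraries, and the parts of these cannot be told apart. For the weights the cause was not tested. Without the replicate block that pairs the segments of an animal 641 genes were called (389 and 252), 517 of them among the 617. Among bypassed mice the count was 12 to 122 when 1 animal was left out, against 84, and 12 without R2. Median-of-ratios scaling gave 613 calls and rescaling without the pancreatic list 652. Under scaling, length, weights or pseudocount, calls ended for Cyp27a1, Npc1l1, Ftl1, Slc7a15, Slc7a7, Slc30a4, Deptor, Maf, Sct, Reg1 and Ces2a, and Slc23a2, Vdr, Slc6a19 and Apob passed under at least 1. Depth is unknown, so values of a few CPM carry a counting error that cannot be given.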

Other observations

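Calls among genes of energy metabolism are to be read against those of all genes (3.54% higher and 2.25% lower). Lower calls made up 6.12% of the oxidative phosphorylation list and 4.17% of the glycolysis list. They made up 7.41% of the fatty acid oxidation and PPARA list and 12.5% of the gluconeogenesis list. Of 49 measured genes of oxidative phosphorylation 1 had a difference above 0, and the median was −0.43. The test was passed by 3 of them: Ndufa5 of complex I (−1.09 ± 0.22, call lost without animal 3, 4 or 5 at an adjusted p from 0.0524 to 0.0635), Uqcrc1 of complex III (−1.07 ± 0.26, call lost without animal 2, 3, 4 or 5 at an adjusted p from 0.0906 to 0.124, and 0.0589 without the animal block) and the cytochrome c gene Cycs (−0.80 ± 0.19, call lost without animal 2, 3, 4 or 5 at an adjusted p from 0.0819 to 0.117). Under either rescaling 6 were called. Genes of the mitochondrial ribosome (74 measured, 11 above 0, median −0.23) and of the proteasome (37 measured, 1 above 0, median −0.35) had fewer members above 0 than below, and 0 of either passed the test. Of 24 glycolysis genes 1, Pfkfb3, was called, 4 under either rescaling, and the median was −0.34. Of 27 genes of fatty acid oxidation and PPARA targets 14 had a difference above 0, 1 was called higher and 2 lower, and the median was 0.01. Of 8 gluconeogenesis genes 5 lay above 0 and 1 was called lower, with a median of 0.12. Genes on these lists are not independent of each other, and depth and RNA quality of the libraries are not known.

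Solute carriers were called in both directions. Of 219 measured Slc genes 27 (12.3%) were higher in the jejunum and 14 (6.39%) lower, against 3.54% and 2.25% of all genes. The next 4 genes are on no list and were named after their values were seen. Slc13a1, a sulfate importer, had 1512, 753, 828, 965 and 324 CPM in the duodenum and 427, 319.8, 168, 135 and 53.5 CPM in the jejunum (−2.15 ± 0.23, limma adjusted p = 0.00063). Slc13a2, a carrier of citrate and succinate, averaged 145 ± 83.1 and 383 ± 61.2 CPM (1.55 ± 0.25), and Slc28a1, a nucleoside importer, 194 ± 73.1 and 497 ± 32.2 CPM (1.43 ± 0.21). Aoc1, the diamine oxidase that breaks down histamine, averaged 564 ± 203 CPM in the duodenum and 2140.2 ± 465 CPM in the jejunum (1.98 ± 0.18, limma adjusted p = 0.000394), without overlap. In the zinc list Slc30a10, a manganese exporter, was lower (−1.54 ± 0.22) and Slc30a4 higher (1.10 ± 0.26, call lost without animal 2, 3 or 5 at an adjusted p from 0.109 to 0.133). Of 10 bile acid genes 1 was higher and 2 lower (all genes 3.54% and 2.25%): Baat, which joins bile acids to taurine, was higher (1.94 ± 0.23) and the export pump gene Abcc3 (−1.06 ± 0.23, call lost without animal 3, 4 or 5 at an adjusted p from 0.0639 to 0.0843, and 0.0705 without the animal block) and the nuclear receptor gene Nr0b2 (−1.21 ± 0.23, call lost without animal 4 at an adjusted p of 0.0595) were lower.

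Of 39 interferon-stimulated genes 3 were lower, Usp18 (−0.91 ± 0.21, call lost without animal 1, 2, 4 or 5 at an adjusted p from 0.0525 to 0.137, and 0.0519 without the animal block), Xaf1 (−0.82 ± 0.20, call lost without animal 2, 3, 4 or 5 at an adjusted p from 0.0851 to 0.158) and Gm14446 (−0.91 ± 0.16, call lost without animal 2 at an adjusted p of 0.0715), against 2.25% of all genes, and the list's median was −0.29. After rescaling without the pancreatic list 6 were lower. The incretin receptor gene Glp1r was lower at a low level, 4.10 ± 2.25 and 1.18 ± 0.672 CPM (−1.17 ± 0.28, call lost without animal 2, 3 or 4 at an adjusted p from 0.0994 to 0.15). Several short lists had 0 genes called (limma, adjusted p below 0.05), against 5.79% of all genes. They were B and plasma cells (6 measured), macrophages and dendritic cells (10), mast cells and granulocytes (2) and MHC class II (6). The others were endothelium (8), fibroblasts (16) and the clock (17). Lists this small say little about whether these cells differ between the segments. Under either rescaling 1 clock gene was lower.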
